A study of Mus musculus with 4 samples.

Results

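The aquaporins are a family of membrane channels, and 8 of their genes in mouse skin are described here: Aqp1, Aqp3, Aqp4, Aqp5, Aqp7, Aqp8, Aqp9 and Aqp11. They were taken as the genes whose symbol was the only one annotated to a probe set, out of 19938 genes named on the arrays; a probe set was chosen by its mean intensity over the 4 arrays, the brightest of a gene, but each of the 8 had only 1 probe set. RNA came from skin of E16.5 embryos (E, embryonic day), with 2 control arrays and 2 Ovol2 BT arrays, and RNA of 2 mice on each array. Ovol2 BT embryos carried TRE-Ovol2-Flag, a tetracycline-responsive transgene for the epithelial zinc finger factor Ovol2 with a Flag tag, together with K5-tTA, in which the keratin 5 promoter drives the transactivator in basal epidermis. Controls carried TRE-Ovol2-Flag without K5-tTA or were wild type; which of these was on which array is not given, and mice with K5-tTA alone were not analysed here. The labels give the strain CB6F1 for both control arrays and FVB/N for both Ovol2 BT arrays, although the growth protocol speaks of littermates, so genotype and labelled strain cannot be told apart. The comparison asks which transcripts differ in early skin when Ovol2 is overexpressed there.

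Aquaporins form pores that let water follow osmotic gradients across membranes. Some of them, the aquaglyceroporins Aqp3, Aqp7 and Aqp9, also pass glycerol and other small solutes. In skin, Aqp3 is the aquaporin of basal keratinocytes, where it carries water and glycerol and is known for its part in epidermal hydration. The classical water channels include Aqp1 of endothelium and red blood cells, Aqp4 of astrocytes and skeletal muscle, and Aqp5 of glands. Aqp8 passes water and also ammonia and hydrogen peroxide, and Aqp11 lies in intracellular membranes.

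None of the 8 aquaporins passed the threshold of a limma fit across all genes (Benjamini-Hochberg adjusted p under 0.05); 0.0268% of the 14953 genes tested did, 0.0201% as higher and 0.00669% as lower. Aqp3 was lower on both Ovol2 BT arrays than on both controls, at 0.417 of the control level, and Aqp9 was higher on both, at 2.40 times the control level; these are fitted values that did not pass. At an unadjusted p under 0.05 stood 2 of the 8, 1 higher and 1 lower, against 4.23% of all genes tested (2.49% higher and 1.74% lower). Of the other members, 4 had overlapping groups (Aqp1, Aqp4, Aqp7 and Aqp11), while Aqp5 and Aqp8 were higher on both Ovol2 BT arrays by amounts that were small on at least 1 of them. Groups that do not overlap were thus found for 4 of 8 members, 3 with Ovol2 BT higher and 1 with it lower, against 34.2% of all genes tested (20.1% higher and 14.1% lower). The median difference over the 8 was 0.12 on the log2 scale, against 0.03 over all genes tested. Aqp8, included in both, had a control mean (7.15) under the filter on dim genes (7.32) and was tested only through Ovol2 BT replicate 1. Neither the count nor the median is therefore read as a result about the members. With 2 arrays in each group, the smallest p that an exact permutation test allows is 0.333, and none was run for single genes. The plots of each member's level by array and of its difference between genotypes show these values.

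**Figure D1:**
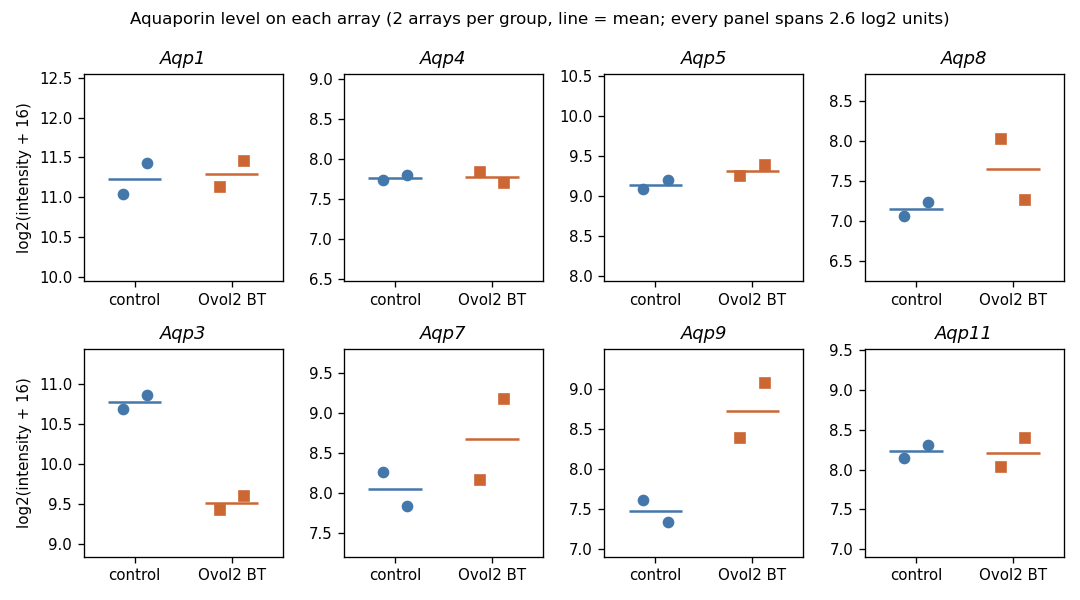
Level of each of the 8 aquaporins on the 4 arrays, on the log2(intensity + 16) scale; circles are control arrays, squares Ovol2 BT arrays, lines group means, and every panel spans the same number of log2 units. Aqp3 lies lower on both Ovol2 BT arrays (9.42 and 9.60, against 10.69 and 10.86), Aqp9 lies higher on both, and Aqp1, Aqp4, Aqp7 and Aqp11 overlap.

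**Figure D2:**
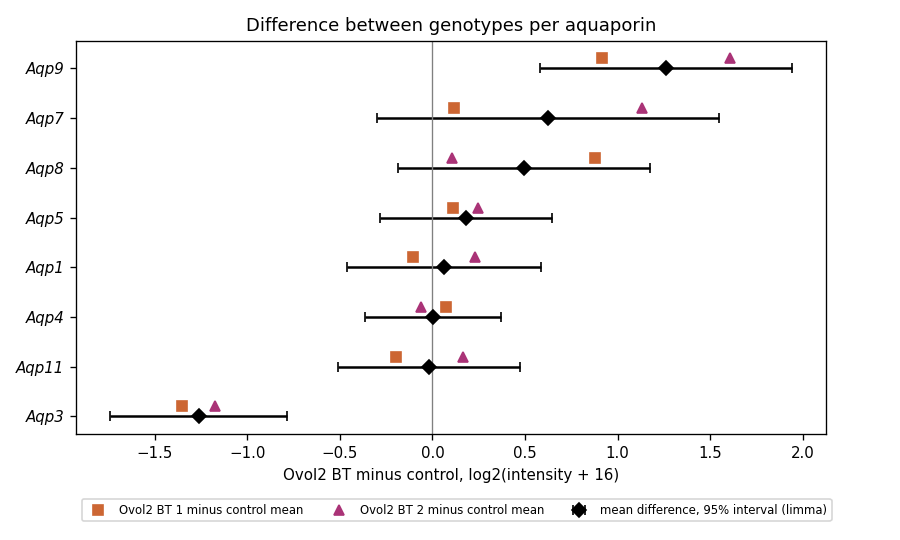
Difference between Ovol2 BT and control for each aquaporin on the log2(intensity + 16) scale: diamonds are fitted differences with the 95% interval of the limma fit (2 arrays per group), and squares and triangles show the 2 Ovol2 BT arrays singly, each less the mean of the controls. The intervals of Aqp3 and Aqp9 lie to either side of 0, but neither gene passed the adjustment over all genes; the Ovol2 BT arrays differ most from each other for Aqp7, Aqp8 and Aqp9.

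The arrays themselves differed in ways that touch these values. Ovol2 read 7.59 and 8.29 (log2) in control skin and 12.93 and 12.96 in Ovol2 BT skin, matching the label of every array. All arrays are labelled female, yet the Y-linked gene Eif2s3y had intensities of 1101 and 1339 on control and Ovol2 BT replicate 1 and of 55.9 and 10.4 on the replicates numbered 2. In the same order, Y-linked Kdm5d read 669 and 814 against 38.1 and 11.8, and Xist read 118 and 312 against 9142 and 1773. These values contradict the label for the replicates numbered 1, and replicate number follows this signal in both genotypes. Ovol2 BT replicate 2 stood apart: 893 genes lay more than 2-fold under their mean over the 3 remaining arrays, where each of those had 30 to 43 such genes. The median difference between arrays of one genotype, in absolute terms, was 0.13 between the controls and 0.28 between the Ovol2 BT arrays. In whole skin, fewer cells of a type and less RNA per cell cannot be told apart. The replicates are numbered as biological ones, but each is a pool of mice, and p-values rest on the spread between these arrays.

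Aqp3, the glycerol and water channel of basal keratinocytes, had the lowest fitted difference of the 8. Its intensities were 1631 and 1845 in control skin and 671 and 760 in Ovol2 BT skin. Both Ovol2 BT values lay below both control values, and the gap between the groups was larger than the gap within either. On the log2(intensity + 16) scale the mean was 10.77 (SD 0.12, n = 2) in controls and 9.51 (SD 0.12, n = 2) in Ovol2 BT skin. The difference was -1.26 (SE 0.19, 95% interval -1.74 to -0.78, limma adjusted p = 0.381), and its unadjusted p of 0.000841 was the 33rd smallest of the genes tested. In size, 99.5% of genes tested differed by no more than Aqp3. In limma fits that left out an Ovol2 BT array, the Aqp3 difference was -1.17 without replicate 1 and -1.35 without replicate 2. In these fits the spread of the single Ovol2 BT array left is borrowed from the controls.

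The RefSeq sequence before the start of Aqp3 is shown because Aqp3 is the member with the clearest separation between genotypes, and that before one annotated start of Aqp9 because Aqp9 differed in the opposite direction. Each is the 250 bases upstream of the start, 5′ to 3′ on the gene's own strand (GRCm38.p6, minus strand for both), at chr4:41098184-41098433 for Aqp3 and chr9:71163290-71163539 for Aqp9. Capitals mark matches to the motifs searched.
Aqp3: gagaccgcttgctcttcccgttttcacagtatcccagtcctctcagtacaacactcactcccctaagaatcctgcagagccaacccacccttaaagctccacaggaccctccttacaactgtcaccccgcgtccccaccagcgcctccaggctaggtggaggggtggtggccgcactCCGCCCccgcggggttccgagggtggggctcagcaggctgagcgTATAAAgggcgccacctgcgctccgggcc
Aqp9: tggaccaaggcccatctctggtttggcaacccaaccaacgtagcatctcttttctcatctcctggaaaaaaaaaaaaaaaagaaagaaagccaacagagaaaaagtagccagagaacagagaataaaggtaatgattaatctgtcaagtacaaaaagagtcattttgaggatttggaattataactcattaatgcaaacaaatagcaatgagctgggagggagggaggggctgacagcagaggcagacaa

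The motifs searched on both strands were TATAAA (the TATA box), GGGCGG (the GC box bound by Sp1 and related factors) and CCGTTA (a core sequence known to be bound by Ovol proteins); none of these overlaps another. Aqp3 held TATAAA starting 29 bases before the gene start and the GC box, read on the opposite strand as CCGCCC, starting 73 bases before it. TATAAA was found in 12.4% of the 32851 such windows of all genes, and GGGCGG in 32.7%. The core CCGTTA was found in 2.18% of all windows and in 0 of the 9 windows of the 7 members with an entry in the table, which says only that these letters are not in these windows. Both annotated starts of Aqp9 lacked all 3 motifs. Aqp1 and Aqp5 held the GC box, with 1 match in Aqp1 and 2 in Aqp5.

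Markers of the basal layer, in which Aqp3 is normally made, were divided. Of 10 basal keratinocyte markers, all tested, 0 passed in limma; 3 were lower and 0 higher at an unadjusted p under 0.05, and the list's median difference was -0.15. Values for the 3 with such a p, all keratins, and for other members follow. Relative to the control mean, the intensity of Krt15 was 0.359 and 0.391 in Ovol2 BT skin, that of Krt5 was 0.533 and 0.562, and that of Krt14 was 0.578 and 0.691. Aqp3, at 0.386 and 0.437, lay among these keratins. The basal regulator Trp63 stood at 0.951 and 0.776 and the hemidesmosome genes Itga6 at 1.08 and 0.815 and Col17a1 at 0.855 and 1.07, each overlapping the controls. Other genes of basal cell attachment went both ways without overlap or a pass in limma: Itgb4 read 1146 and 1520 in control skin against 1657 and 1983 (0.45, adjusted p = 0.906), and Dst read 1352 and 1689 against 1182 and 923 (-0.53, adjusted p = 0.906). The summed intensity of the list was 41351 and 43793 in control skin and 27615 and 29386 in Ovol2 BT skin. Much of it came from Krt5 (14222 and 13988 against 7524 and 7928) and Krt14 (9914 and 9360 against 5573 and 6664). The lower sum therefore does not describe the members of the list other than the keratins. Whether the Aqp3 value moves with these keratins for a shared reason was not tested. Spinous and granular markers, of the layers above, had summed intensities of 80788 to 82390 in controls and 75435 to 79059 in Ovol2 BT skin, with 0 of 8 tested passing and 0 at an unadjusted p under 0.05; the smallest p-values were those of Ivl (-0.46), Krt1 (-0.08) and Krtdap (-0.11). Of 7 periderm markers, of the transient outer layer, 1 (Krt8, 2.34, SE 0.12, adjusted p = 0.0253) passed in limma as higher, and the list's median difference was 0.90. At an unadjusted limma p under 0.05, 6 of the 7 were higher and 0 lower, against 2.49% and 1.74% of all genes tested. The remaining marker, the periderm factor Grhl3, was lower on both Ovol2 BT arrays, as Aqp3 was (-0.14, adjusted p = 0.906).

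The 5 genes whose pattern over the 4 arrays lay nearest to that of Aqp3 were Sox21, Adh6b, Krt15, Gsta4 and Lhx2. The measure was the root mean square distance of log2 values after each gene was centred on its own mean, over 4 arrays and 14952 genes. Sox21, a transcription factor of hair, was nearest, at a distance of 0.040. The alcohol dehydrogenase Adh6b lay at 0.0415, the keratin Krt15 at 0.0802 and the glutathione transferase Gsta4 at 0.0837. The hair follicle regulator Lhx2 was the fifth, at 0.144, and no gene beyond the first 4 lay within 0.1. Each of these 5 genes was lower in Ovol2 BT skin, by differences between -1.41 (Krt15) and -1.03 (Lhx2), and none passed in limma (adjusted p from 0.101 to 0.498). Being nearest among so many genes is a description and not a test, and the lower values of the 5 follow from how they were chosen.

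**Figure D3:**
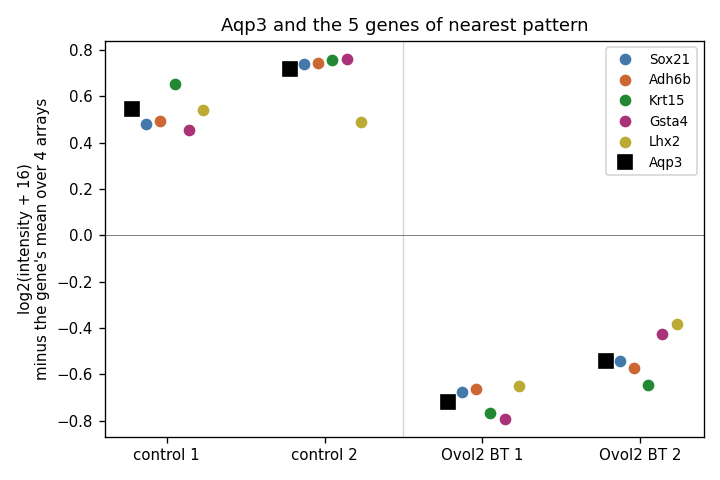
Aqp3 (squares) and the 5 genes of nearest pattern (circles), as log2(intensity + 16) minus each gene's mean over the 4 arrays, with 1 position per array; the grey line parts control from Ovol2 BT arrays. All 6 genes lie above their mean on both control arrays and below it on both Ovol2 BT arrays, which for the 5 follows from how they were chosen.

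In the RefSeq table Aqp3 has another aquaporin, Aqp7, as its direct neighbour among protein-coding genes. In order the genes there are Nfx1, Aqp7, Aqp3, Nol6 and Ube2r2. Nfx1 was also lower on both Ovol2 BT arrays (1156 and 1076, against 1215 and 1323 in control skin), by less than Aqp3. Aqp7 and Nol6 overlapped between genotypes, and Ube2r2 was higher on both Ovol2 BT arrays. Their differences were -0.18 for Nfx1, 0.62 for Aqp7, 0.18 for Nol6 and 0.20 for Ube2r2, against -1.26 for Aqp3. None passed in limma (adjusted p of 0.906 to 0.910 for these 4 neighbours).

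Aqp9, an aquaglyceroporin best known from liver and white blood cells, had the highest fitted difference. Its intensities were 179 and 144 in control skin and 317 and 523 in Ovol2 BT skin. Both Ovol2 BT arrays lay above both controls, and replicate 2 was the higher of the pair. The log2 mean was 7.47 (SD 0.20, n = 2) in controls and 8.73 (SD 0.49, n = 2) in Ovol2 BT skin, and the difference was 1.26 (SE 0.27, 95% interval 0.58 to 1.94, limma adjusted p = 0.655, unadjusted p = 0.00446). Its difference was 1.61 without Ovol2 BT replicate 1 and 0.92 without Ovol2 BT replicate 2, each from a single Ovol2 BT array. The control level was close to the filter on dim genes (7.32 on the log2 scale), where the offset of 16 shrinks differences.

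Aqp8 is a channel of liver, pancreas and colon. Its intensities were 118 and 136 in control skin and 246 and 137 in Ovol2 BT skin. Ovol2 BT replicate 1 stood well above the rest, while replicate 2 differed from the higher control by under 2 intensity units. The difference was 0.49 (SE 0.27, limma adjusted p = 0.906), made up of 0.88 above the control mean for Ovol2 BT replicate 1 and 0.11 for replicate 2. Its mean over the 4 arrays, 7.40, passed the filter of 7.32 only through Ovol2 BT replicate 1, since the other 3 arrays lay below that level. It was the member nearest to that limit; outside it lay Mip, with a mean of 7.20, and Aqp6, with 6.42.

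Markers of liver, a tissue that makes Aqp8 and Aqp9, and of yolk sac were read beside these members. Of 10 such markers 9 were measured and 6 tested, and 0 passed in limma; 3 of the 6 (Afp, Ttr and Apoa2) had a control mean under the filter and were tested only through their Ovol2 BT values, so no count or median over the list is given. The summed intensity of the 9 was 1450 and 1465 on the control arrays, 5793 on Ovol2 BT replicate 1 and 3666 on replicate 2. The fetal plasma protein Afp read 138 and 115 in control skin and 1960 and 674 in Ovol2 BT skin. Transthyretin (Ttr) read 118 and 112 against 369 and 186, and albumin (Alb) read 286 and 265 against 416 and 1198. The list was divided in its highest array. Like Aqp8, Afp, Ttr, Apoa1 (346 and 414 against 1584 and 571) and the fibrinogen chains Fgb (229 and 225 against 1064 and 368), Fga and Fgg were highest on Ovol2 BT replicate 1. Like Aqp9, Alb, Apoa2 and Ahsg were highest on replicate 2. Each of these aquaporins thus also had markers that were highest on the other Ovol2 BT array. Of these markers 3 of 9 (Ahsg, Fga and Fgg) lay below the filter, and Ahsg overlapped between the genotypes (86.6 and 77.0 against 77.5 and 335). Myeloid markers, of the white blood cells that can carry Aqp9, had summed intensities of 6798 and 7169 in controls and 8434 and 8855 in Ovol2 BT skin, with 1 of 8 tested, the lysozyme gene Lyz2 (0.63, adjusted p = 0.906), at an unadjusted p under 0.05. Of the 8 tested, 6 had a positive difference and 2 a negative one. Those 2, Ptprc (306 and 313 against 359 and 159) and Mrc1 (1763 and 1470 against 1887 and 1092), were lowest on Ovol2 BT replicate 2, where Aqp9 was highest. The neutrophil genes S100a8 and S100a9 lay below the filter. The part of these cells or tissues in the values of Aqp8 and Aqp9 was not tested.

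Aqp7, the channel through which fat cells release glycerol, was high on a single array. Its intensities were 292 and 212 in control skin and 271 and 563 in Ovol2 BT skin. Ovol2 BT replicate 1 lay between the controls, and replicate 2 was above all others. The difference of 0.62 (SE 0.37, limma adjusted p = 0.906) was 0.12 without Ovol2 BT replicate 2, and 1.13 without replicate 1, each from a single Ovol2 BT array. Adipocyte markers had summed intensities of 10896 and 6988 in control skin and 7210 and 13080 in Ovol2 BT skin, much of it from Car3 (6597 and 2996 against 2974 and 7075). Of 9 measured, 2 (Adipoq and Cidec) had the array order of Aqp7. The fat cell hormone Adipoq, picked with its values known, read 282 and 120 in control skin and 141 and 963 in Ovol2 BT skin. Of the 9, 7 were tested, 0 passed in limma, and Lep and Cidec lay below the filter. Retn (0.29), Pparg (0.26) and Plin4 (0.30) had the smallest p-values, and each was higher on both Ovol2 BT arrays than on both controls, unlike Aqp7. Skeletal muscle markers, summing to 50638 and 29627 in control skin and 28777 and 56189 in Ovol2 BT skin, were also highest on Ovol2 BT replicate 2, and 5 of the 12 had the array order of Aqp7. The share of all genes with that order was not counted, so neither the fat nor the muscle count sets those markers apart from other genes. The part of fat or muscle in the Aqp7 values was not tested.

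Aqp1, the water channel of endothelium and red blood cells, overlapped between genotypes. Its intensities were 2089 and 2734 in control skin and 2217 and 2806 in Ovol2 BT skin. Within each genotype the replicate numbered 2 was the higher, and the difference between the controls, 0.39 on the log2 scale, exceeded that between genotypes (0.06, SE 0.21, 95% interval -0.46 to 0.58, limma adjusted p = 0.963). The controls differed by no more than this for 91% of genes tested. The order of the arrays was the same for the summed endothelial markers (15156 and 16048 against 15568 and 17337) and the summed erythroid markers (4600 and 7955 against 4933 and 16531). It was also that of 4 of 9 single endothelial and 4 of 8 single erythroid markers measured. The share of all genes with this array order was not counted, so these counts do not set the markers apart from other genes. Of 9 endothelial markers tested none passed, and 0 had an unadjusted p under 0.05; the same held for the 6 erythroid markers tested. The endothelial genes with the smallest p were Emcn (-0.14), Tie1 (0.18) and Cldn5 (0.18). The part of vessels and blood in the Aqp1 values was not tested.

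**Figure D4:**
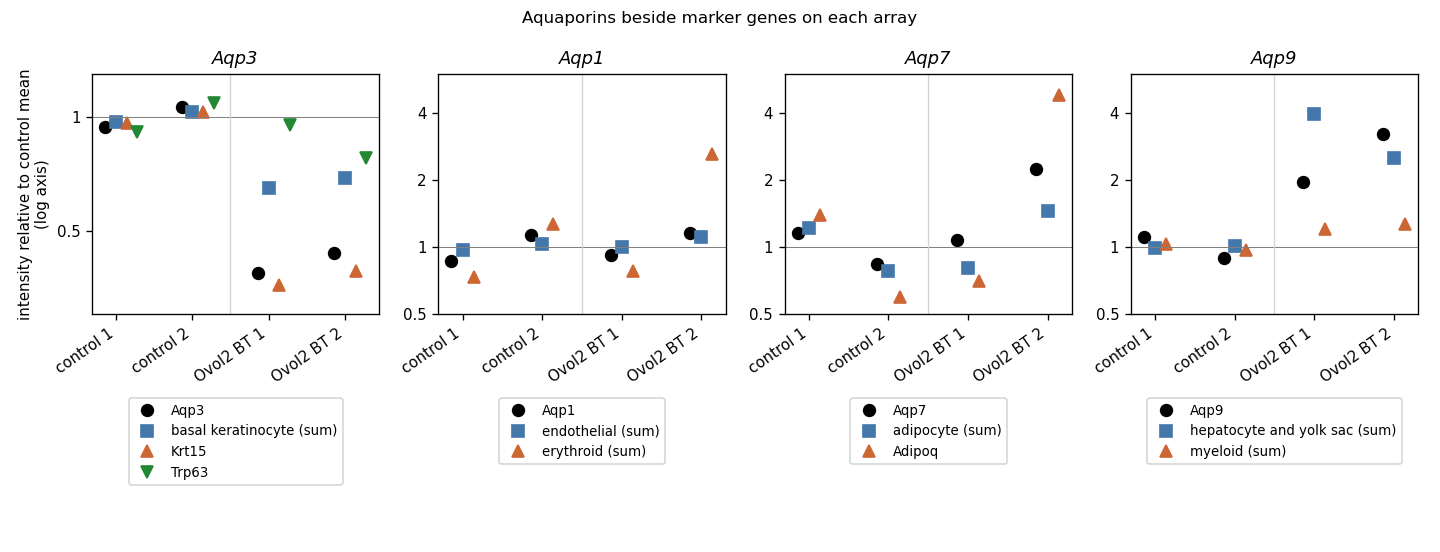
Intensity on each array relative to the mean of the 2 control arrays (log axis) for Aqp3, Aqp1, Aqp7 and Aqp9 (circles), beside the summed intensity of marker lists and single marker genes; the grey vertical line parts the genotypes. Aqp3 lies near Krt15, one of the 5 genes of nearest pattern to it, and away from Trp63, and the basal markers were divided. Aqp1 has the array order of the endothelial and erythroid sums. Aqp7 and Adipoq are highest on Ovol2 BT replicate 2 (2.24 and 4.79 times the control mean). Skeletal muscle markers, whose sum was also highest there, are not drawn. Aqp9 is raised on both Ovol2 BT arrays. Trp63 and Adipoq were picked with their values known.

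The water channels Aqp4 and Aqp5 and the intracellular Aqp11 differed little. Aqp4 read 197 and 207 in control skin and 213 and 193 in Ovol2 BT skin. These values overlap, and the difference was 0.0036 (SE 0.15, 95% interval -0.36 to 0.37, limma adjusted p = 0.997). Over the same arrays the skeletal muscle markers ranged from 28777 to 56189 in summed intensity, and the part of muscle in the Aqp4 values was not tested. Aqp11 read 266 and 302 in control skin and 245 and 320 in Ovol2 BT skin. The Ovol2 BT values lay on either side of the controls, and the difference was -0.02 (SE 0.20, 95% interval -0.51 to 0.47, limma adjusted p = 0.989). Aqp5, a channel of sweat, salivary and tear glands, read 527 and 571 in control skin and 595 and 654 in Ovol2 BT skin. It was higher on both Ovol2 BT arrays, but the difference of 0.18 (SE 0.18, 95% interval -0.28 to 0.64, limma adjusted p = 0.906) was close to the spread between arrays of one genotype (0.11 and 0.13). For these 3 genes the intervals do not reach a difference of the size fitted for Aqp3 or Aqp9, of 1.26. Aqp4, with a mean log2 level of 7.77, and Aqp11, with 8.22, lay nearer to the filter on dim genes (7.32) than Aqp5 (9.23). Differences of dim genes are shrunk on this scale, so the intervals of Aqp4 and Aqp11 limit only the difference as measured.

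The other aquaporin genes on the arrays were Mip of the lens, Aqp2 and Aqp6 of the kidney and Aqp12 of the pancreas. Aqp2 read 244 and 266 in control skin and 288 and 295 in Ovol2 BT skin, a difference of 0.18 (limma adjusted p = 0.906). Aqp12 read 192 and 185 against 179 and 260, with overlap and a difference of 0.18 (limma adjusted p = 0.910). Mip (118 and 137 against 133 and 136) and Aqp6 (63.4 and 60.2 against 70.0 and 86.3) lay below the filter and were not tested.

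Genes that act with aquaporins were read from the same fit. Of 12 genes of glycerol and its lipid products, 11 were measured and tested, 0 passed in limma, and 1 was higher and 0 lower at an unadjusted p under 0.05; the median difference was 0.16. The gene at that level was Lipe, the hormone-sensitive lipase that frees glycerol from fat stores (0.70, SE 0.22, adjusted p = 0.906), followed by the fat lipase Pnpla2 (0.33) and, lower, the phospholipase Pld1 (-0.28). Of 17 genes of cell volume and the osmotic response, 16 were tested, 0 passed and 0 had an unadjusted p under 0.05, with a median of -0.12. The volume-regulated anion channel subunits Lrrc8b (-0.45, SE 0.21, adjusted p = 0.906) and Lrrc8d (-0.26) and the betaine transporter Slc6a12 (0.29) had the smallest p-values there.

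Of 14 genes of sodium and water transport in epithelia, 12 were tested and 0 passed in limma; 2 were higher and 1 lower at an unadjusted p under 0.05, with a median of 0.07. The sodium channel subunit Scnn1g differed by 0.58 (SE 0.16, adjusted p = 0.841), from log2 levels of 7.91 and 7.88 to 8.42 and 8.53. The protease Prss8, which activates that channel, differed by 0.36 (adjusted p = 0.906), and the sodium pump subunit Atp1b3 by -0.35 (adjusted p = 0.906). Hydrogen peroxide, which Aqp3 and Aqp8 can pass, is made by Duox1 and removed by Cat and Gpx3. Of 18 genes of its handling, 15 were tested and 0 passed; 1 was higher and 1 lower at an unadjusted p under 0.05, with a median of -0.01. Duox1 differed by 0.70 (SE 0.15, limma adjusted p = 0.655), from 7.48 and 7.58 to 8.17 and 8.30. Its control levels were close to the filter on dim genes (7.32), where the offset shrinks differences. Gpx3 differed by -0.43 (limma adjusted p = 0.871) and Cat by -0.20 (limma adjusted p = 0.906). Glial markers, a further source of Aqp4, had 0 of 4 tested at an unadjusted p under 0.05, and the astrocyte gene Gfap lay below the filter.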

How the data were processed

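Each of the 4 arrays measured total RNA of whole skin, amplified with random primers per the labels' protocols. The deposited values are linear intensity values per probe set, made by the authors with Affymetrix Expression Console 1.1.1 and PLIER 2.0, per the submitters' processing notes. How the arrays were normalised against each other, and on which build, is not given in the sources used here. Arrays give no read depth; their number limits precision.

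Of 35557 probe sets, 21789 had 1 annotated symbol, 1621 several and 12147 none listed; only the first kind was used. Symbols were updated by Entrez number to RefSeq (GRCm38.p6), which matched 21698. Values were taken to log2(intensity + 16), which shrinks folds of dim genes. The probe set with the highest mean log2 value stood for a gene, and genes with a mean under the 25th percentile were left out. limma 3.58.1 in R 4.3.3 (statmod 1.5.0) fitted Ovol2 BT minus control with an intensity trend in eBayes (2 residual, 3.45 prior degrees of freedom). The test was two-sided, with Benjamini-Hochberg adjustment over 14953 genes. A run on simulated data checked only that the fit returned the size of added differences. How often such differences passed is not given here. Named were all members, the other aquaporins, genes from the lists (by rule those that passed, or up to 3 with the smallest p, though not every list is given them), the genes nearest in pattern to Aqp3 and its neighbours; other single markers were picked with their values known. The members and lists were chosen with earlier results of these data known.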

Additional observations from a re-analysis of the deposited data

How the results depend on the processing

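Of the 12 other settings (normalisation, offset, filter, variance model, array weights, probe set summary, replicate block and crossed pairing), none called a member. Aqp3 lay between -1.28 and -1.21 (limma adjusted p 0.279 to 0.528). Aqp9, which the filter at the 50th percentile left out, lay between 1.07 and 1.34 (limma adjusted p 0.198 to 0.808). Only normalisation and offset could move these differences. The other settings leave the difference of group means as it is, so they bear on its SE and p alone. Aqp4 turned to -0.0013 with quantile normalisation and -0.058 with cyclic loess, and Aqp11 to 0.035 with median centring. The count of genes passing in limma was 0 with cyclic loess and 0 with a variance without a trend (685 and 601 at an unadjusted p under 0.05, against 632 in the fit reported). With the replicate block it was 9, and none was a member (Aqp3 adjusted p = 0.528); the numbers follow the Y-linked signal, but nothing in the labels pairs the arrays. Deviations of same-numbered arrays correlated at -0.172 across genes, so the crossed pairing was added after the data were seen, with 5 genes passing.

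Leaving out 1 array at a time gave 4 to 2453 genes passing and 0 to 3 members. The highest of both counts came from the fit without Ovol2 BT replicate 1, and the members there were Aqp3, Aqp7 and Aqp9. The only Ovol2 BT array left in that fit was replicate 2, the array that stood apart. Each of these fits leaves a single array in a group, so the counts are not read as results about the members. Aqp3 ranged from -1.35 to -1.17 and Aqp9 from 0.92 to 1.61. Aqp1 (-0.13 to 0.25), Aqp4 (-0.064 to 0.071) and Aqp11 (-0.20 to 0.17) changed sign, Aqp7 ranged from 0.12 to 1.13 and Aqp8 from 0.11 to 0.88. The number of arrays limits what these fits can show.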
